A study of Danio rerio with 12 samples.

Results

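The genes described here are 10 factors and matrix components of chondrocytes (cartilage cells) and osteoblasts (bone-forming cells): sox9a, sox5, sox6, runx2a, runx2b, runx3, sp7, matn1, acana and cnmd. They were taken by symbol from a table of 31465 zebrafish genes, where each stood on 1 row. A filter on low counts left 9 of the 10, with runx2a below it, among 21068 genes that were tested. The table held 12 RNA libraries made from embryos, in 4 groups of 3. The groups were wild type of strain AB at 48 hours post fertilization (hpf), wild type of strain AB at 72 hpf, and embryos labelled as mutant for mycn at 48 and at 72 hpf. The mycn protein is a Myc-type transcription factor. All embryos were raised in Danieau buffer, and total RNA was taken with TRIzol. The labels give the tissue as embryonic cells. The allele, the zygosity, the background of the mutant line and the number of embryos or clutches behind a library are not stated in the sources, so p-values measure only how far these libraries differ from each other, which may be technical.

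Sox9 proteins are needed for mesenchyme to become cartilage, and Sox5 and Sox6 act with them to switch on matrix genes in chondrocytes. The matrix is built from fibrillar collagens and from aggrecan, with smaller proteins such as matrilin that link the fibres. Runx2 and Sp7 (osterix) act in turn to direct osteoblast formation. In zebrafish the first cartilages of the head form from cranial neural crest around the ages sampled here, and the first bones appear soon after. Since the labels name embryos and no sort or dissection, RNA of other tissues that use the same factors is counted with that of the skeleton, and in such bulk samples fewer cells of a type and less RNA per cell cannot be told apart.

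Library totals lay between 14793715 and 19732340 counts, and a count of 3 was worth 0.151 to 0.216 CPM (counts scaled to library size with TMM factors) in a single library. The first principal component held 84.1% of the variance between libraries, and the positions of the libraries on it were not set against age. Libraries of 1 group varied more at 48 hpf, where the biological coefficient of variation was 0.2 in wild type and 0.136 in the mutant-labelled group, than at 72 hpf, where it was 0.0703 and 0.0848. At 48 hpf mutant-labelled replicate 3 was the highest of its group for 7 of the 10 genes and the lowest for matn1 and runx2b. RNA of mycn itself was higher in the mutant-labelled libraries, at 222 ± 25.2 CPM (SD, n = 3) against 74.0 ± 14.9 at 48 hpf and at 153 ± 9.87 against 77.3 ± 2.25 at 72 hpf, with log2 fold changes of 1.59 and 0.98 (adjusted p = 5.45e-06 and 0.00144). A loss of the transcript would lower it, so this check does not show the labels to be right or wrong, and the libraries are called mutant-labelled throughout. Unless another tool is named, adjusted p-values come from the quasi-likelihood test of edgeR and were adjusted by Benjamini-Hochberg over all 21068 genes, and a gene was called changed below 0.05.

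Between genotypes, 0 of the 9 tested cartilage and bone genes were called changed at 48 hpf, where 3.04% of all tested genes were, and 0 of 9 at 72 hpf, where 0.555% were. Between ages they moved far more. In wild type 6 of 9 rose from 48 to 72 hpf and 0 fell, led by the matrix genes matn1 at 213-fold and acana at 23.2-fold, while 70.8% of all tested genes changed, 35.4% upward. In the mutant-labelled libraries 6 of 9 rose and 1 fell, against 70.2% of all tested genes changed, 35.7% upward and 34.4% downward. The share of the 9 genes called was 66.7% in wild type and 77.8% in the mutant-labelled libraries, near the share of all genes in both. The median log2 change with age over the 9 genes was 0.59 and 0.60, against -0.02 and 0.00 over all tested genes.

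**Figure D1:**
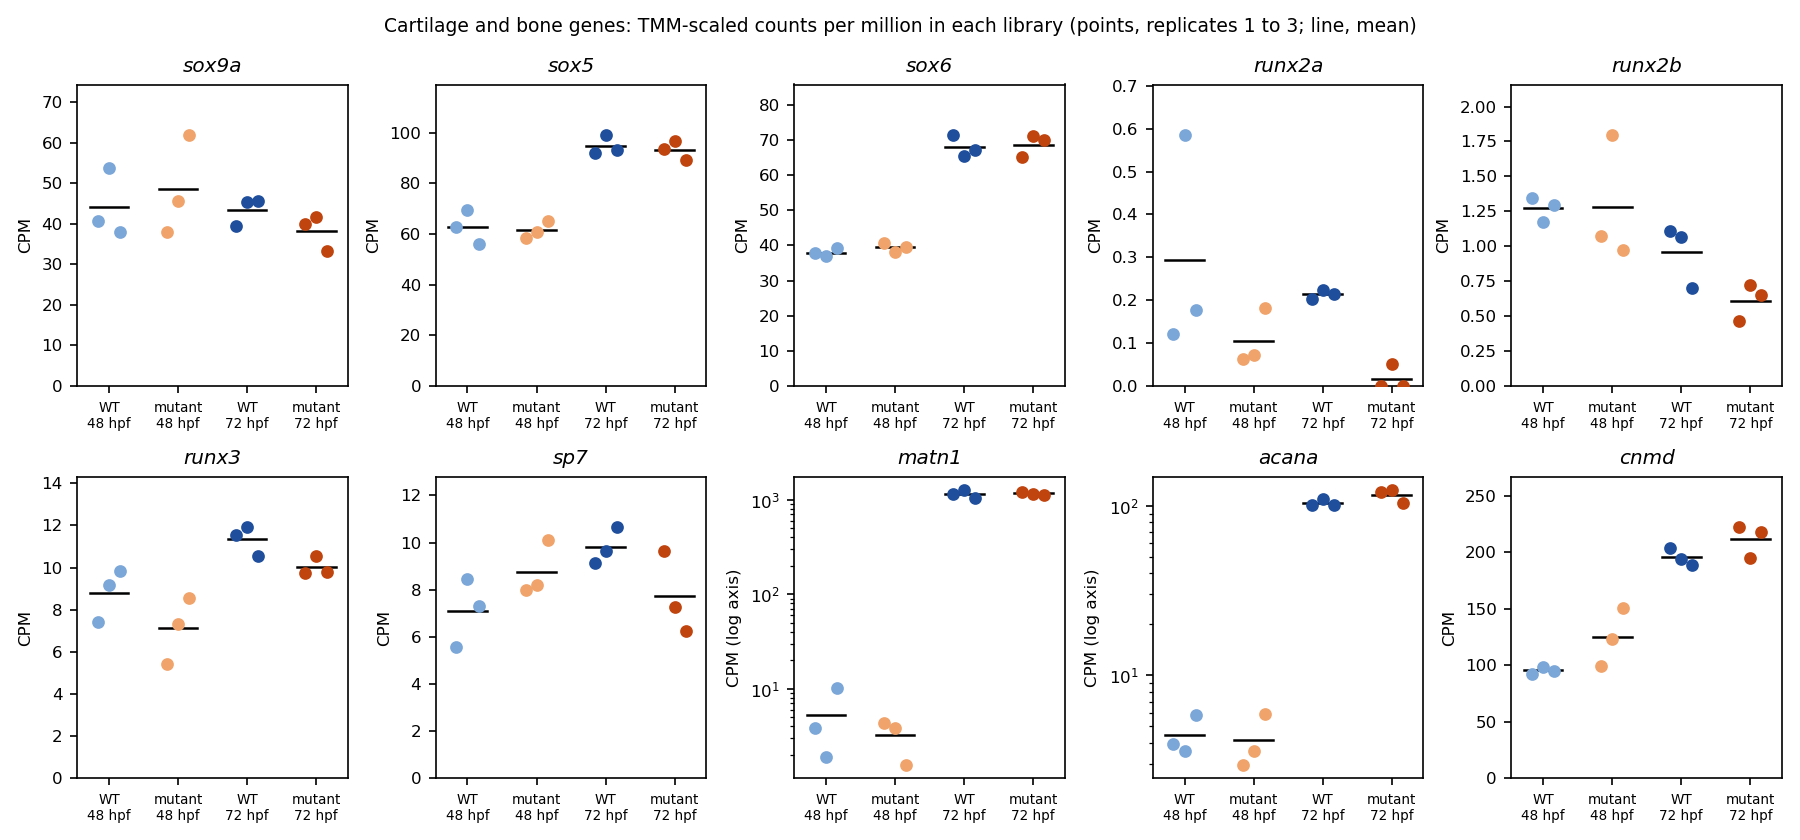
TMM-scaled CPM of each of the 10 genes in each library, with points for the 3 libraries of each group and a line at the group mean. The axes of matn1 and acana are logarithmic and the others start at 0. Every 72 hpf library of matn1 lies above 1000 CPM, and every 48 hpf library at or below 10.1 CPM.

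Among the matrix genes, matn1 encodes matrilin 1, a protein of the cartilage matrix that bridges collagen fibres and proteoglycans. At 48 hpf it stood at 3.86, 1.89 and 10.1 CPM in the wild-type libraries and at 4.30, 3.88 and 1.58 CPM in the mutant-labelled ones. At 72 hpf it stood at 1137, 1249 and 1031 CPM in wild type and at 1217, 1153 and 1111 CPM in the mutant-labelled libraries. The 48 hpf libraries were all far below the 72 hpf libraries, and the genotypes overlapped at both ages. The ages did not overlap for 73.3% of all tested genes in wild type and for 74.2% in the mutant-labelled libraries. The rise with age was 7.73 on the log2 scale in wild type (SE 0.42, fold interval 115 to 393, adjusted p = 1.26e-10) and 8.49 in the mutant-labelled libraries (SE 0.44, a 359-fold rise, adjusted p = 8.40e-11). Between genotypes the log2 difference was -0.73 at 48 hpf (95% interval -1.64 to 0.19, adjusted p = 0.418) and 0.03 at 72 hpf (-0.61 to 0.66, adjusted p = 0.998). Both intervals use 1 spread estimated over all 12 libraries. At 48 hpf the highest matn1 library was 5.37 times the lowest in wild type and 2.72 times in the mutant-labelled group. At 72 hpf these ratios were 1.21 and 1.09, so the intervals do not give the precision of each age. The wild-type library with 10.1 CPM held 172 counts against 63 and 29 in the other wild-type libraries of that age, and without it the 48 hpf difference turned to 0.17 and the wild-type rise was 8.62.

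acana encodes aggrecan, the large proteoglycan that lets cartilage hold water. It was at 3.92, 3.58 and 5.83 CPM in wild type and at 2.97, 3.60 and 5.90 CPM in the mutant-labelled libraries at 48 hpf. The 72 hpf values were 101, 109 and 102 CPM in wild type and 121, 123 and 104 CPM in the mutant-labelled libraries. Every library at 72 hpf was above every library at 48 hpf, and the genotypes overlapped at both ages. acana rose by 4.54 on the log2 scale in wild type (SE 0.19, adjusted p = 1.10e-11) and by 4.79 in the mutant-labelled libraries (SE 0.20, a 27.7-fold rise, adjusted p = 8.60e-12). The genotype difference was -0.09 at 48 hpf (95% interval -0.57 to 0.39, adjusted p = 0.888) and 0.16 at 72 hpf (-0.16 to 0.49, adjusted p = 0.943).

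cnmd encodes chondromodulin, a membrane protein of cartilage known in mammals to keep blood vessels out. It had 92.6, 98.8 and 95.0 CPM in wild type and 99.6, 123 and 151 CPM in the mutant-labelled libraries at 48 hpf. Its 72 hpf values were 204, 194 and 189 CPM in wild type and 222, 195 and 218 CPM in the mutant-labelled libraries. At 48 hpf the mutant-labelled libraries all lay above the wild-type ones, by a margin of less than 1 CPM at the nearest pair, as did 7.69% of all tested genes, and at 72 hpf the groups overlapped. The difference at 48 hpf was 0.39 on the log2 scale (SE 0.12, 95% interval 0.13 to 0.64) and did not pass adjustment (adjusted p = 0.0983). It passed when libraries were scaled by their totals (0.48, adjusted p = 0.0444), a scale that shifted the median of all genes by 0.09. Relative to that shift the cnmd difference was 0.39. It also passed with DESeq2 (0.39, adjusted p = 0.0459) and without mutant-labelled replicate 1 (0.52, adjusted p = 0.0276). Its adjusted p ran from 0.0276 to 0.338 over the alternatives. Without mutant-labelled replicate 3 it was 0.24. At 72 hpf the difference was 0.11 (-0.14 to 0.37, adjusted p = 0.95), and the change of the genotype difference between ages was -0.27 (-0.63 to 0.09, adjusted p = 0.627). With age cnmd rose 2.05-fold in wild type (adjusted p = 1.18e-06) and 1.70-fold in the mutant-labelled libraries (adjusted p = 3.22e-05).

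The paralog acanb, a second aggrecan gene, was counted apart from acana, although reads shared by near-identical copies could be split between them. It held 27, 17 and 30 counts in wild type and 7, 4 and 22 in the mutant-labelled libraries at 48 hpf, and 142, 124 and 145 against 181, 156 and 147 at 72 hpf. The 48 hpf groups overlapped through 1 mutant-labelled library. The log2 difference there was -1.09 (SE 0.39, adjusted p = 0.143), and it passed without mutant-labelled replicate 3 (adjusted p = 0.0108), as did the average over both ages (-0.88, adjusted p = 0.0399). With age acanb rose by 2.26 in wild type (adjusted p = 2.51e-06) and by 3.60 in the mutant-labelled libraries (adjusted p = 4.75e-08). The genotype difference changed by 1.34 between the ages (adjusted p = 0.269), or by 2.24 without mutant-labelled replicate 3 at 48 hpf (adjusted p = 0.0261). Over the alternatives the adjusted p reached 0.479 for that change, 0.474 for the 48 hpf difference and 0.641 for the average. With each library left out in turn the average of acanb ran from -0.88 to -0.26.

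**Figure D2:**
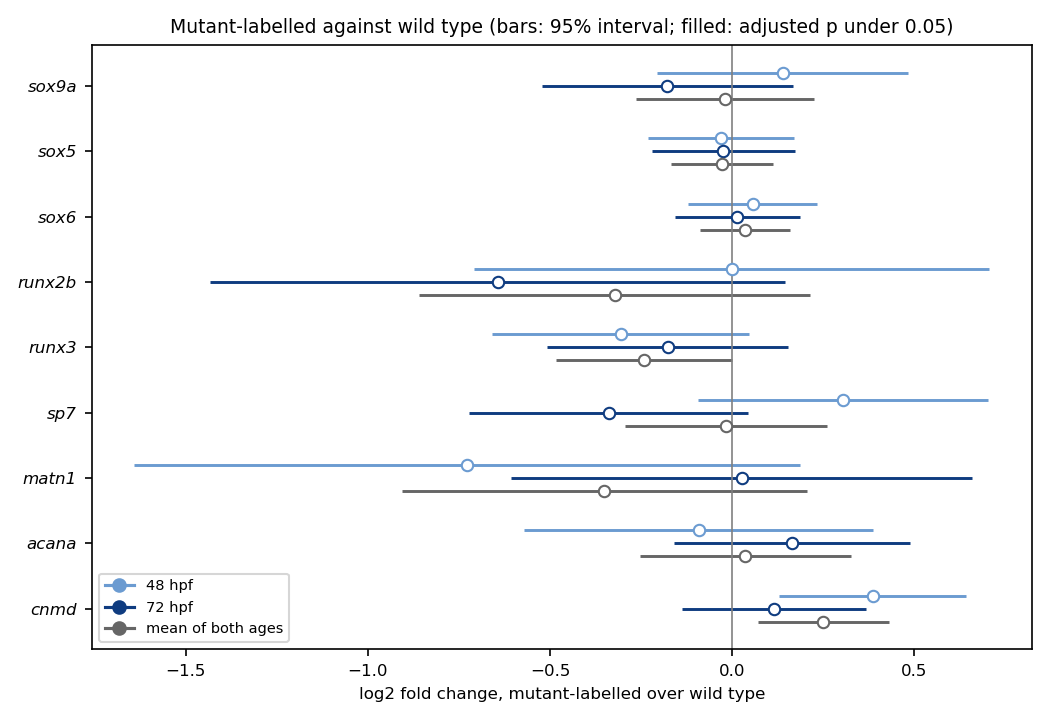
Log2 fold change of the mutant-labelled libraries over wild type for the 9 tested genes at 48 hpf, at 72 hpf and averaged over both ages, with 95% intervals that are not adjusted for the number of genes. The interval of cnmd at 48 hpf, from 0.13 to 0.64, does not include 0.

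Of the Sox factors, sox5 and sox6 rose with age in both genotypes and sox9a was called in neither. sox9a, the ortholog of mammalian Sox9 with sox9b, had 40.7, 53.8 and 37.9 CPM in wild type and 38.0, 45.7 and 61.9 CPM in the mutant-labelled libraries at 48 hpf. By 72 hpf the values were 39.5, 45.2 and 45.5 CPM in wild type and 40.1, 41.6 and 33.4 CPM in the mutant-labelled libraries. The 4 groups overlapped. The genotype difference was 0.14 on the log2 scale at 48 hpf (95% interval -0.21 to 0.48, adjusted p = 0.727) and -0.18 at 72 hpf (-0.52 to 0.17, adjusted p = 0.937). The change with age was -0.02 in wild type (-0.37 to 0.32, adjusted p = 0.908) and -0.34 in the mutant-labelled libraries (-0.69 to 0.01, adjusted p = 0.0734). The age change of sox9a depended on the scaling, since with library totals it was 0.41 in wild type (adjusted p = 0.0345) while the median of all genes shifted by 0.43, and relative to that shift it was -0.02. In the mutant-labelled libraries the fall passed without wild-type replicate 2 at 48 hpf (-0.35, adjusted p = 0.0284), without wild-type replicate 3 at 48 hpf (-0.35, adjusted p = 0.0416) or without mutant-labelled replicate 1 at 48 hpf (-0.50, adjusted p = 0.0114). With each library left out in turn this fall ran from -0.50 to -0.15, with adjusted p up to 0.387. With library totals it was -0.017 (adjusted p = 0.933), or -0.34 relative to the shift of all genes.

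The paralog sox9b was 65.9 CPM in wild type and 69.0 CPM in the mutant-labelled group at 48 hpf, and 49.4 and 51.5 CPM at 72 hpf. With age it fell by 0.41 on the log2 scale in wild type (adjusted p = 0.0143) and by 0.42 in the mutant-labelled libraries (adjusted p = 0.0129), and with library totals the wild-type change was 0.017 (adjusted p = 0.921) and the mutant-labelled change was -0.10 (adjusted p = 0.549). The wild-type call was lost without wild-type replicate 2 at 48 hpf (-0.28, adjusted p = 0.0698), and the mutant-labelled call without its replicate 3 at 48 hpf (-0.26, adjusted p = 0.0752) or its replicate 2 at 72 hpf (-0.38, adjusted p = 0.052).

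sox5 had 63.0, 69.4 and 56.0 CPM in wild type and 58.3, 60.8 and 65.3 CPM in the mutant-labelled libraries at 48 hpf. Libraries of 72 hpf had 91.9, 99.2 and 93.1 CPM in wild type and 93.5, 96.7 and 89.0 CPM in the mutant-labelled libraries. All 72 hpf libraries were above all 48 hpf libraries, and the genotypes overlapped at each age. sox5 rose 1.51-fold in wild type (adjusted p = 3.00e-05) and by 0.60 on the log2 scale in the mutant-labelled libraries (adjusted p = 2.88e-05). The genotype difference was -0.03 at 48 hpf (95% interval -0.23 to 0.17) and -0.02 at 72 hpf (-0.22 to 0.17).

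sox6, which works with sox5 in chondrocytes and is also known in muscle and neurons, had 37.8, 37.0 and 39.2 CPM in wild type and 40.7, 38.3 and 39.5 CPM in the mutant-labelled libraries at 48 hpf. Libraries of 72 hpf had 71.5, 65.4 and 67.2 CPM in wild type and 65.1, 71.1 and 69.9 CPM in the mutant-labelled libraries. The libraries of each age lay close together, and those of different ages did not overlap. The rise was 1.79-fold in wild type (adjusted p = 1.55e-07) and 1.74-fold in the mutant-labelled libraries (adjusted p = 2.97e-07). The genotype difference was 0.06 at 48 hpf (95% interval -0.12 to 0.23) and 0.01 at 72 hpf (-0.16 to 0.19).

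The 3 Runx genes encode factors of the runt domain. runx2a, a co-ortholog with runx2b of the mammalian osteoblast factor Runx2, was too low for the test. It held 2, 9 and 3 counts in wild type and 1, 1 and 3 in the mutant-labelled libraries at 48 hpf. At 72 hpf it held 4 counts in each wild-type library and 0, 1 and 0 in the mutant-labelled ones. At 72 hpf the mutant-labelled libraries all lay below the wild-type ones, as they did for 9.14% of the genes that passed the filter, and the 48 hpf groups overlapped. Relative to library size the wild-type sum was 11.9 times that of the mutant-labelled libraries at 72 hpf (12 against 1 counts, exact 95% counting interval 1.76 to 508) and 2.65 times at 48 hpf (14 against 5 counts, interval 0.903 to 9.41). These intervals cover counting error only and were computed over reads that are not independent molecules. In edgeR with no filter the log2 difference of runx2a averaged over both ages was -2.26 (adjusted p = 0.153), and at 72 hpf it was -3.14 (adjusted p = 0.529).

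runx2b held 22, 18 and 22 counts in wild type and 17, 25 and 16 in the mutant-labelled libraries at 48 hpf, and 22, 19 and 13 against 9, 14 and 11 at 72 hpf. On the CPM scale the 72 hpf values were 1.11, 1.06 and 0.700 in wild type and 0.465, 0.723 and 0.649 in the mutant-labelled libraries. The genotypes overlapped at both ages, at 72 hpf through the lowest wild-type library. The genotype difference was -0.64 on the log2 scale at 72 hpf (SE 0.37, 95% interval -1.43 to 0.15, adjusted p = 0.783) and 0.00 at 48 hpf (-0.71 to 0.71). Between ages runx2b fell by 1.05 in the mutant-labelled libraries (SE 0.37, adjusted p = 0.0188) and was -0.41 in wild type (adjusted p = 0.305), where library totals gave 0.020 (adjusted p = 0.962). The difference between these age changes was -0.64 (adjusted p = 0.728). The fall was no longer called without mutant-labelled replicate 2 at 48 hpf (-0.75, adjusted p = 0.114), without mutant-labelled replicate 1 at 72 hpf (-0.88, adjusted p = 0.0772) or with library totals (-0.72, adjusted p = 0.0912).

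runx3, which acts in cartilage and is also known from blood cells and sensory neurons, had 7.40, 9.18 and 9.84 CPM in wild type and 5.44, 7.34 and 8.58 CPM in the mutant-labelled libraries at 48 hpf. At 72 hpf it had 11.6, 11.9 and 10.5 CPM in wild type and 9.75, 10.5 and 9.80 CPM in the mutant-labelled libraries. At 72 hpf the mutant-labelled libraries all lay below the wild-type ones, at the nearest pair by less than 0.1 CPM, as did 9.14% of all tested genes, and at 48 hpf the groups overlapped. The difference was -0.18 on the log2 scale at 72 hpf (95% interval -0.51 to 0.15, adjusted p = 0.928), -0.31 at 48 hpf (-0.66 to 0.05, adjusted p = 0.371) and -0.24 averaged over both ages (-0.48 to 0.00, adjusted p = 0.322). runx3 rose with age by 0.49 in the mutant-labelled libraries (SE 0.16, adjusted p = 0.0134), a call lost without replicate 1 at 48 hpf (0.32, adjusted p = 0.0829). In wild type the change was 0.36 (adjusted p = 0.0504) and lay at the threshold, since DESeq2 called it (0.39, adjusted p = 0.0477), as did limma-voom (0.37, adjusted p = 0.0394) and a fit without wild-type replicate 3 at 48 hpf (0.46, adjusted p = 0.0249). Fits without mutant-labelled replicate 1 or 3 at 48 hpf called it too (adjusted p = 0.0256 and 0.0331), and with library totals it was 0.79 (adjusted p = 0.000331) beside the shift of 0.43 in all genes.

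sp7 encodes osterix, which acts after Runx2 in osteoblasts. It had 5.57, 8.46 and 7.30 CPM in wild type and 7.97, 8.20 and 10.1 CPM in the mutant-labelled libraries at 48 hpf. At 72 hpf it had 9.13, 9.63 and 10.7 CPM in wild type and 9.65, 7.28 and 6.26 CPM in the mutant-labelled libraries. The mutant-labelled mean was the higher one at 48 hpf and the lower one at 72 hpf, with overlap at both ages. The genotype difference was 0.30 on the log2 scale at 48 hpf (95% interval -0.09 to 0.70, adjusted p = 0.442) and -0.34 at 72 hpf (-0.72 to 0.04, adjusted p = 0.736). The difference between them was -0.64 (SE 0.26, 95% interval -1.20 to -0.09) and did not pass adjustment (adjusted p = 0.39). With age sp7 rose by 0.46 in wild type (SE 0.18, adjusted p = 0.0332) and was -0.18 in the mutant-labelled libraries (adjusted p = 0.401), where library totals gave 0.14 (adjusted p = 0.507). The wild-type rise was not called without wild-type replicate 1 at 48 hpf (0.31, adjusted p = 0.147), without wild-type replicate 2 at 72 hpf (0.48, adjusted p = 0.06) or without wild-type replicate 3 at 72 hpf (0.40, adjusted p = 0.107).

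**Figure D3:**
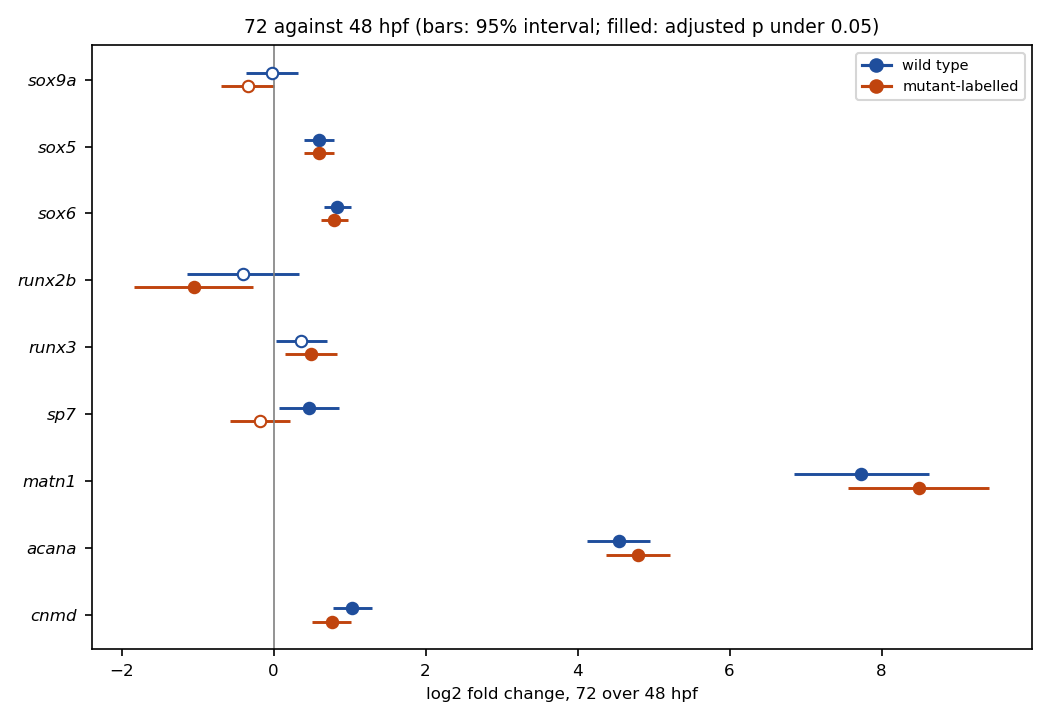
Log2 fold change from 48 to 72 hpf for the 9 tested genes in wild-type and in mutant-labelled libraries, with 95% intervals that are not adjusted for the number of genes. matn1, acana, cnmd, sox6, sox5 and runx3 lie above 0 in both genotypes, with runx3 called in the mutant-labelled libraries only. sp7 is at 0.46 in wild type and at -0.18 in the mutant-labelled libraries.

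The test of whether the genotype difference changed between the ages called 0 of the 9 genes, where 0.47% of all tested genes were called, and the genotype difference averaged over both ages called 0 of 9, where 2.07% were. At an unadjusted p below 0.05 there was 1 gene at 48 hpf (cnmd), 0 at 72 hpf, 1 for the difference between ages (sp7) and 1 for the average (cnmd). The share of all tested genes at that cutoff was not computed. DESeq2, whose fit held all 10 genes, called 1 at 48 hpf (cnmd) and 0 in the other genotype comparisons, with no adjusted p for runx2a at 72 hpf and in the average, and limma-voom called 0 of 9 in each. The 48 hpf and age comparisons share libraries, so their values are not independent of each other.

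A further 4 lists placed the 10 genes among the rest of the skeletal programme, and 0 genes of any of them were called between genotypes at 48 hpf, at 72 hpf, for the difference between ages or for the average. They were 29 tested genes of skeletal precursors, 21 cartilage regulators, 28 cartilage matrix genes and 27 osteoblast genes. At 48 hpf the median log2 difference was -0.09 for precursors, -0.05 for regulators, 0.16 for matrix genes and -0.03 for osteoblast genes, against 0.00 over all tested genes. At 72 hpf the medians were -0.08, -0.18, 0.13 and 0.10 in the same order, against 0.01 over all tested genes. At an unadjusted p below 0.05 at 48 hpf, 0 precursor genes were higher and 2 lower, 1 regulator was higher and 3 lower, 5 matrix genes were higher and 1 lower, and 0 osteoblast genes were higher and 1 lower. At 72 hpf these were 1 and 0 precursors, 0 and 1 regulators, 2 and 0 matrix genes, and 7 and 0 osteoblast genes. For the difference between ages they were 2 and 0, 0 and 0, 2 and 1, and 2 and 0 in the same order, and for the average 1 and 4, 0 and 6, 8 and 0, and 5 and 1. The share of all tested genes at this unadjusted cutoff was not computed, so these counts are not read as effects on the lists. DESeq2 called 2 matrix genes at 48 hpf and 1 osteoblast gene at 72 hpf, and 1 matrix and 1 osteoblast gene for the average, and limma-voom called 0 genes of the 4 lists between genotypes.

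The precursor gene nearest to a call at 48 hpf was gsc, the goosecoid factor of the pharyngeal arches, with 17.1, 15.0 and 22.3 CPM in wild type and 13.2, 15.4 and 11.3 CPM in the mutant-labelled libraries (log2 difference -0.45, SE 0.15, adjusted p = 0.125), and without wild-type replicate 2 it passed (-0.57, adjusted p = 0.0443). With each library left out in turn the gsc difference ran from -0.57 to -0.27, and its adjusted p reached 0.381 over the alternatives. The nearest regulator was foxa3, known best from endoderm, with a difference of -0.35 (SE 0.12, adjusted p = 0.141). Among matrix genes it was ucmab, a secreted protein of cartilage with Gla residues, at 9.97, 9.89 and 9.48 CPM in wild type and 11.6, 14.7 and 13.2 CPM in the mutant-labelled libraries (0.43, SE 0.12, adjusted p = 0.0705). For ucmab the mutant-labelled libraries all lay above the wild-type ones, as they did for 7.69% of all tested genes. The difference passed with library totals (0.52, adjusted p = 0.027), where the median of all genes shifted by 0.09. DESeq2 called ucmab at the threshold (0.44, adjusted p = 0.05 after rounding). Its adjusted p ran from 0.027 to 0.281 over the alternatives. Among osteoblast genes it was scpp5, a secreted phosphoprotein of mineralising tissue, with 4, 8 and 8 counts in wild type and 1, 0 and 3 in the mutant-labelled libraries (adjusted p = 0.0875). For foxa3 and scpp5 the mutant-labelled libraries all lay below the wild-type ones. The share of all tested genes that did so at 48 hpf is not given here.

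At 72 hpf the gene nearest to a call in each list was msx2b among precursors (log2 difference 0.44, SE 0.13, adjusted p = 0.248) and gdf6a, a joint and skeletal growth factor, among regulators (-0.39, SE 0.17, adjusted p = 0.611). Among matrix genes it was hapln1a, which links aggrecan to hyaluronan, at 188, 187 and 202 CPM in wild type and 236, 245 and 243 CPM in the mutant-labelled libraries (0.33, SE 0.10, adjusted p = 0.246). Among osteoblast genes it was postnb, a periostin of connective tissue, at 832, 845 and 773 CPM in wild type and 1081, 1089 and 1060 CPM in the mutant-labelled libraries (0.40, SE 0.12, adjusted p = 0.228). For msx2b, hapln1a and postnb the mutant-labelled libraries all lay above the wild-type ones at 72 hpf, as they did for 11% of all tested genes. For gdf6a they all lay below, as they did for 9.14% of all tested genes. hapln1a and postnb were called when the 6 libraries of that age were fitted alone, with adjusted p = 0.0131 for hapln1a and 0.00872 for postnb. DESeq2 also called postnb (0.40, adjusted p = 0.0349). Over the alternatives the adjusted p reached 0.704 for hapln1a and 0.612 for postnb. For the difference between ages the nearest were msx2b (0.46, adjusted p = 0.35), pthlha, a parathyroid hormone-like gene (-0.68, adjusted p = 0.509), ucmab (-0.60, adjusted p = 0.156) and scpp5 (2.02, adjusted p = 0.266). For the average they were gsc (-0.39, adjusted p = 0.0824), foxa3 (-0.28, adjusted p = 0.111), col9a1a (0.30, adjusted p = 0.11) and scpp5 (-1.15, adjusted p = 0.0998), of which gsc passed without wild-type replicate 2 at 48 hpf (-0.46, adjusted p = 0.0221) and col9a1a did so too (0.39, adjusted p = 0.00741). DESeq2 also called the average of col9a1a (0.31, adjusted p = 0.0327). Over the alternatives the adjusted p of these averages reached 0.188 for gsc and 0.246 for col9a1a.

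With age, most skeletal precursor genes fell and most matrix genes rose in wild type. Of 29 precursor genes 22 fell and 4 rose (median log2 change -0.92), and of 28 matrix genes 20 rose and 4 fell (median 1.34), where 35.4% of all tested genes rose and 35.4% fell. Regulators were divided, with 9 of 21 higher and 7 lower, as were osteoblast genes, with 14 of 27 higher and 9 lower. The mutant-labelled libraries gave 22 of 29 precursors lower and 3 higher, 20 of 28 matrix genes higher and 2 lower, 9 of 21 regulators higher and 8 lower, and 16 of 27 osteoblast genes higher and 7 lower. The medians there were -0.94, 1.36, -0.02 and 0.42, and 35.7% of all tested genes rose and 34.4% fell.

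Among precursors in wild type, msx1b, a homeobox gene of neural crest and fins, fell by 3.10 on the log2 scale, from 75.0 to 8.75 CPM (adjusted p = 8.22e-13), twist1b fell by 2.28, msx2b by 2.40 and prrx1a by 1.88. In the mutant-labelled libraries msx1b fell by 3.06, twist1b by 2.20, prrx1b by 1.78 and prrx1a by 1.69. The collagen genes of cartilage rose. In wild type col2a1a, the main fibrillar collagen of cartilage, went from 457 to 4056 CPM (log2 change 3.15, SE 0.17, adjusted p = 1.7e-10), col11a2 from 61.0 to 825 CPM (3.76) and col9a1a from 95.3 to 702 CPM (2.88), while ucmab went from 9.78 to 39.1 CPM. In the mutant-labelled libraries col2a1a rose by 2.88, col11a2 by 3.57, col9a1a by 2.60 and col11a1a by 2.35.

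Of the regulators, nkx3.2, a factor of the jaw joint, fell by 1.99 in wild type and by 2.25 in the mutant-labelled libraries. wnt9a, a ligand made in and around the forming jaw, held 195 counts at 48 hpf and 9 at 72 hpf in wild type, and 179 and 6 in the mutant-labelled libraries, and both falls were called (adjusted p = 1.09e-07 and 8.25e-08). trps1 fell by 2.02 and 2.61, and ccn2a, a connective tissue growth factor, rose by 1.47 and 1.45. Osteoblast genes moved both ways. scpp5 held 20 counts at 48 hpf and 1200 at 72 hpf in wild type and 4 and 1071 in the mutant-labelled libraries, and both rises were called (adjusted p = 2.01e-11 and 1.48e-11). kazald2 fell by 5.90 in wild type and by 4.83 in the mutant-labelled libraries, and the signalling gene bmp4 fell by 1.71 and 1.66. bmp2b fell by 1.54 in wild type, and col10a1a, a collagen of osteoblasts and hypertrophic cartilage, rose by 3.02 in the mutant-labelled libraries.

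**Figure D4:**
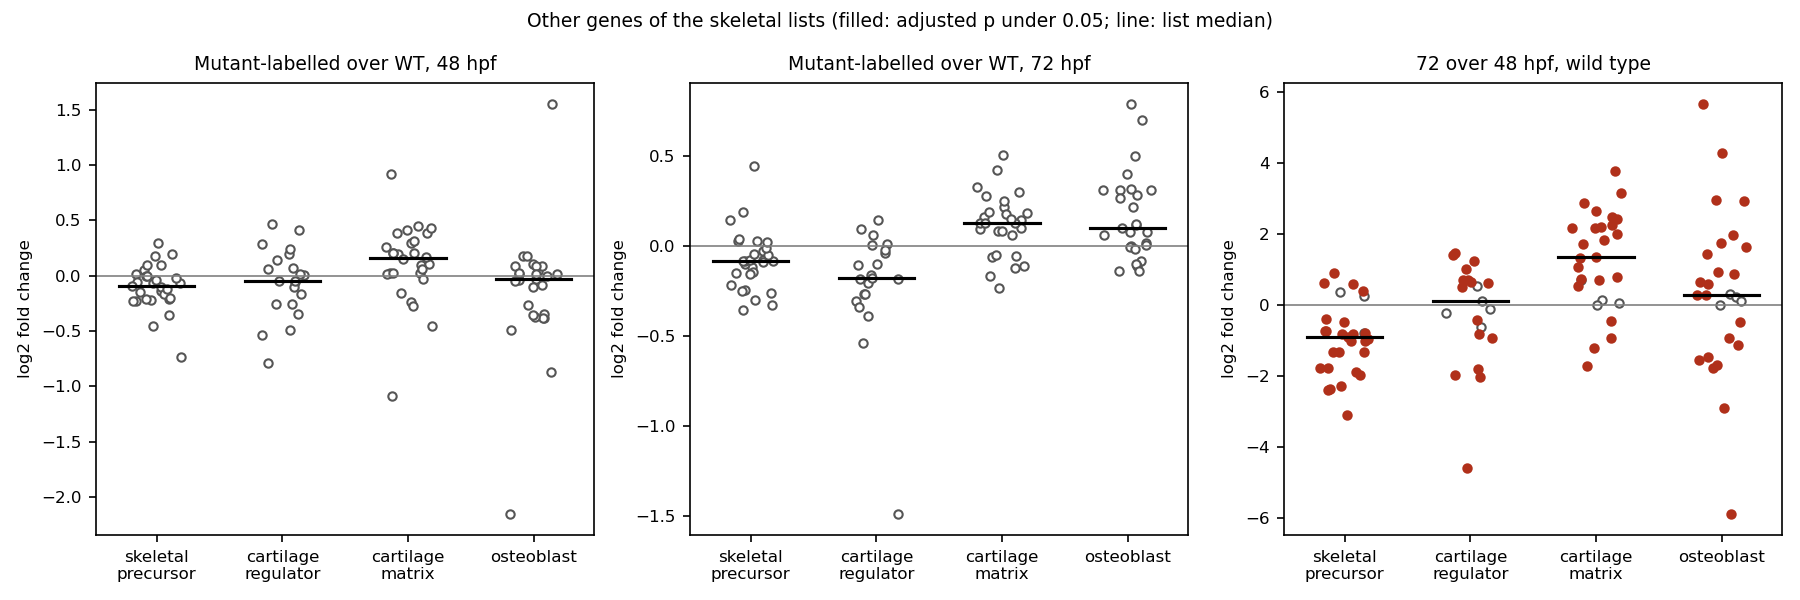
Log2 fold change of each tested gene of the 4 skeletal lists for the genotypes at 48 hpf, the genotypes at 72 hpf and the ages in wild type, with filled points for called genes and a line at the list median. The genotype panels hold 0 called genes, and with age the precursors centre at -0.92 and the matrix genes at 1.34 in wild type.

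Markers of other tissues moved with age beside these genes, and their part in the age changes was not tested. Of 10 neuron markers 9 rose in wild type, with a summed level of 522 to 635 CPM at 48 hpf and 2523 to 2660 at 72 hpf in wild type, and of 577 to 750 and 2673 to 2729 in the mutant-labelled libraries, where 9 rose and 1 fell. Of 10 skeletal muscle markers 9 fell in each genotype, from 60490 to 105400 CPM at 48 hpf to 21080 to 25980 at 72 hpf in wild type, and from 75240 to 87750 to 26050 to 31580 in the mutant-labelled libraries. Of 10 sensory neuron markers 8 rose in wild type and 6 in the mutant-labelled libraries, and 1 fell in each. Of 10 leukocyte markers 8 fell and 1 rose in each. Among all tested genes 35.4% rose and 35.4% fell in wild type. In the mutant-labelled libraries 35.7% rose and 34.4% fell. All 5 fin fold markers fell in each genotype. Of 6 glia markers 5 rose and 1 fell in each. Of 7 otic markers 6 rose in wild type and 5 in the mutant-labelled libraries, and 1 fell in each. Of 7 osteoclast markers 3 rose and 3 fell in each. Of 9 notochord markers 2 rose and 3 fell in wild type and 1 rose and 2 fell in the mutant-labelled libraries. In these lists 0 markers were at 0 counts throughout any group.

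Between genotypes, 0 markers of notochord, skeletal muscle, neurons, leukocytes and otic tissue were called at either age. Of all tested genes 3.04% were called at 48 hpf, 0.555% at 72 hpf and 2.07% for the average. Called markers of the other lists are named after their values were seen. At 48 hpf they were the osteoclast and inflammatory protease gene mmp9 (1 of 7, log2 difference 1.03, adjusted p = 0.0122), the sensory neuron gene ntrk3b (1 of 10, 0.81, adjusted p = 0.0317) and the glial gene slc1a3b (1 of 6, 0.44, adjusted p = 0.0335). At 72 hpf they were the fin fold genes and1 (0.69, adjusted p = 0.0254) and and2 (0.62, adjusted p = 0.0364), 2 of 5. Averaged over both ages, and1 (0.41, adjusted p = 0.0295) and ntrk3b (0.49, adjusted p = 0.0287) were called. Each of these calls was lost when certain single libraries were left out, with adjusted p up to 0.0718 for mmp9, 0.0923 for ntrk3b and 0.117 for slc1a3b at 48 hpf and up to 0.155 for and1 and 0.204 for and2 at 72 hpf. Fitting the 6 libraries of 48 hpf alone also ended the calls of mmp9 (adjusted p = 0.0512), ntrk3b (0.331) and slc1a3b (0.188), and limma-voom ended those of ntrk3b at 48 hpf (0.142) and in the average (0.114). The summed fin fold level at 72 hpf was 373 to 416 CPM in wild type and 526 to 585 CPM in the mutant-labelled libraries. The 7 osteoclast markers at 48 hpf ran from -1.19 to 1.03, with 4 above 0, 3 below and a median of 0.04. Their summed level at that age was 141 to 211 CPM in wild type and 126 to 152 CPM in the mutant-labelled libraries. The summed neuron level at 48 hpf, where cnmd lay higher, was 522 to 635 CPM in wild type and 577 to 750 CPM in the mutant-labelled libraries, and that of notochord was 790 to 811 and 837 to 928 CPM. The sums of glia were 431 to 633 and 507 to 685 CPM, those of otic tissue 79.1 to 91.1 and 80 to 106, and those of leukocytes 126 to 146 and 121 to 139. In mutant-labelled replicates 1 to 3 the neuron sum fell from 749.5 to 663 and 577.3 CPM, while cnmd went from 99.6 to 123 and 151 CPM. The part of these tissues in the values of cnmd was not tested.

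The genes whose profile over the 12 libraries was most like that of 4 of the cartilage and bone genes were found by the root mean square difference of log2 CPM, centred on each gene's mean, among 13044 genes. For matn1 they were rho (0.34), pcolceb (0.43) and mbpa (0.44), where the median gene differed by 4.19, and pcolceb and mbpa were near 0 CPM at 48 hpf. For sp7 they were elp4 (0.16), smurf2 (0.17) and lrrcc1 (0.17), against a median of 0.48. For sox9a they were mecom (0.11), cry4 (0.11) and irx1b (0.11), against 0.45, and for runx2b they were ponzr6 (0.19), fkbp3 (0.22) and gemin7 (0.23), against 0.57.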

How the data were processed

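The deposited table holds whole read counts for each Ensembl gene and its symbol, not normalized. Per the submitters' processing notes, STAR, featureCounts, DESeq2 and the build GRCz11 were used, with no roles or versions. Strand use and annotation release are not given in the sources, so reads of antisense partners or overlapping genes could be mixed, and no step between reads and counts could be checked. All 12 libraries entered 1 model in edgeR 4.0.16 (R 4.3.3), with filterByExpr at a minimum count of 10, TMM scaling, glmQLFit and glmQLFTest, 1 coefficient per group and Benjamini-Hochberg adjustment over the 21068 tested genes at 0.05. CPM are TMM-scaled, and values are means ± SD over n = 3. Fold changes are model estimates with a prior count of 0.125. Each SE is the size of the log2 fold change divided by the square root of the test's F value. The 95% intervals use this SE and the test's own degrees of freedom, and are approximate for genes of low counts. The members and lists were chosen with earlier results of these data known. Genes named are the 10, mycn, the paralogs, and from each skeletal list up to 4 called genes per comparison by smallest p, or else the 1 gene of smallest p. Levels were not compared between genes, since no lengths were used. Alternatives were other scalings (DESeq2 size factors, library totals), no count filter, DESeq2 1.42.0, limma-voom 3.58.1, only the libraries compared, a replicate block and each library left out. Every pair of replicates differed beyond sampling noise (chi-square over its degrees of freedom 4.14 to 49.7). The calling steps were run on simulated data that gave each gene the same spread in all groups, so that check does not cover the unequal spread of the real groups. nkx3.2 and 1 more listed symbol were matched through RefSeq synonyms of assembly GRCz12tu, and no coordinates or sequences are used here.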

Additional observations from a re-analysis of the deposited data

Results flagged for a closer look

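The genotype difference of mmp9, a protease gene of osteoclasts and inflamed tissue, changed by -1.58 on the log2 scale from 48 to 72 hpf (SE 0.27, adjusted p = 0.0159), a difference between ages tested by an interaction contrast. At 48 hpf it stood at 11.1, 7.87 and 11.2 CPM in wild type and 23.0, 22.4 and 16.7 CPM in the mutant-labelled libraries. At 72 hpf it stood at 95.7, 71.5 and 53.1 CPM in wild type and 53.2, 46.1 and 51.5 CPM in the mutant-labelled libraries. The mutant-labelled libraries were the higher ones at 48 hpf, as they were for 7.69% of all tested genes. At 72 hpf they overlapped the lowest wild-type library. The adjusted p rose above 0.05, to between 0.0508 and 0.0593, when any 1 of wild-type replicate 2 at 72 hpf, mutant-labelled replicates 1 and 2 at 48 hpf or mutant-labelled replicates 2 and 3 at 72 hpf was left out.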

How the results depend on the processing

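With library totals as the scale, the median of all genes moved by 0.43 with age in wild type and by 0.32 in the mutant-labelled libraries, and sox9a (0.41), sox9b (0.017) and runx2b (0.020) changed sign with age in wild type, as did sp7 (0.14) in the mutant-labelled libraries. Uncalled genotype differences near 0 also changed sign with library totals, namely sox5 and runx2b at 48 hpf, sox6 at 72 hpf, sox5 for the difference between ages, and sox9a, sox5 and sp7 for the average. At 48 hpf, library totals moved the median genotype difference of all genes by 0.09. There library totals and DESeq2 each called 1 cartilage and bone gene (cnmd), and each called 2 matrix genes. With library totals 61.2% of the called genes at 48 hpf were higher against 34.2% with TMM, 37.1% against 60.6% for the difference between ages, 44.8% against 31.7% for the average, and 69.2% against 49.9% and 65.8% against 50.9% for age in wild type and mutant-labelled libraries. The count of all called genes at 48 hpf, 641, was 1023 with DESeq2 and 74 when the 6 libraries of that age were fitted alone. At 72 hpf 117 became 249 with DESeq2, 195 with limma-voom, 793 in the 6 libraries alone and 74 with the replicate block. For the difference between ages 99 became 175 with no filter, 253 with DESeq2 and 59 with the replicate block, and for the average 436 became 746 with DESeq2. At 72 hpf DESeq2 and the 6 libraries alone each called 1 osteoblast gene, and the 6 libraries alone called 1 matrix gene. For the average DESeq2 called 1 matrix gene and 1 osteoblast gene. The cause of these changes was not tested. Leaving out each library in turn gave 222 to 1133 called genes at 48 hpf, 24 to 195 at 72 hpf, 23 to 276 for the difference and 170 to 780 for the average. Of the 9 genes, 0 to 1 were then called at 48 hpf, 5 to 7 with age in wild type and 6 to 8 in the mutant-labelled libraries. Precursor, matrix and osteoblast lists gave 0 to 1 called gene at 48 hpf, matrix genes 0 to 1 for the difference, and precursor and matrix genes 0 to 1 for the average. Libraries of the same replicate number did not deviate together, with correlations from -0.155 to 0.0233, and 0 of 6 libraries at 48 hpf and 2 of 6 at 72 hpf were closest to their own number. With the replicate block runx3 was called with age in wild type (adjusted p = 0.0449), and slc1a3b at 48 hpf, and1 and and2 at 72 hpf and and1 in the average were no longer called. Counts were lowest for runx2a and runx2b, at 0 to 9 and 9 to 25 a library.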
